A study of Mus musculus with 27 samples.

Results

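The genes described here are 10 members of the desmosome, the junction that ties epithelial cells to their neighbors: the upper-layer cadherin genes Dsg1a, Dsg1b and Dsc1, the basal and simple-epithelium cadherin genes Dsg2, Dsg3, Dsc2 and Dsc3, and the plaque protein genes Pkp1, Pkp3 and Dsp. They were chosen by name, and they are 10 of the 50559 genes in the deposited table. Desmosomes anchor the keratin filaments of adjoining cells to each other. Their membrane part is built of desmogleins (Dsg) and desmocollins (Dsc), whose tails bind plakoglobin and plakophilins, and desmoplakin links this plaque to keratin. In stratified epithelia such as epidermis, Dsg1 and Dsc1 are known from the upper, differentiating layers and Dsg3 and Dsc3 from the layers near the base, while Dsg2 and Dsc2 are also the desmosomal cadherins of simple epithelia, the class to which the thyroid follicle belongs.

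RNA was sequenced from mouse thyroid gland organoids (mTGOs), spheres grown from dissociated thyroid tissue in Matrigel, with a protocol (Smart3SEQ) that reads the 3′ ends of transcripts. The 27 libraries fall into 9 groups of 3. Non-irradiated organoids were collected at days 5, 7 and 11, and organoids that received 2, 4 or 7 Gy of photons after 5 days of growth were collected at days 7 and 11. The comparisons ask how the genes differ with time in culture and, at each later day, with dose. All groups came from C57BL/6 mice 8-12 weeks old and shared a DMEM/F12 medium with antibiotics, glutamax, EGF, FGF2, B27 and the ROCK inhibitor Y27632. The mice were female according to the methods of the study. The column names carry 3 culture identifiers, mTG11, mTG12 and mTG14, that recur in every group. The labels number the mice within each group, but nothing ties a culture identifier to a mouse number, so a library is named here by its group and culture.

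Library totals ranged from 2528866 to 5723150 estimated counts. The smallest amount taken as detectable in a library was 3 counts, which stood for 0.524 to 1.19 counts per 1000000 (CPM), and this limit covers counting error only. The libraries hold RNA of whole organoids, so fewer cells of a type and less RNA per cell cannot be told apart. Several defining markers of the labelled tissue were near 0. Slc5a5 had 6 counts and Tshr 11 counts over all 27 libraries, and thyroglobulin (Tg) ranged from 4.28 to 16.7 CPM over the libraries of day 5 and from 0.238 to 6.17 CPM over those of day 11 without irradiation. The transcription factor genes Foxe1 and Nkx2-1 were detected, at 38.1 and 12.2 CPM at day 5 and 31.3 and 18.7 CPM at day 11. Krt5, a keratin of basal stratified cells, was at 6106 CPM at day 5 and 2495 CPM at day 11.

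All 7 cadherin genes lie in a single cluster on chromosome 18 of GRCm39, from 20093987 to 20737581, in the order Dsc3, Dsc2, Dsc1, Dsg1a, Dsg1b, Dsg3 and Dsg2. The desmocollin genes are on the minus strand and the desmoglein genes on the plus strand. Pkp1 lies on chromosome 1 from 135799133 to 135846945 (minus strand), Pkp3 on chromosome 7 from 140658040 to 140670423 (plus strand) and Dsp on chromosome 13 from 38335230 to 38382553 (plus strand). A gene on the opposite strand overlaps Dsg1a, Dsg1b, Dsg2, Dsg3, Pkp3 and Dsp, a gene on the same strand overlaps Pkp1, and whether the counting used strand is not given in the sources used here. The closely related genes Dsg1a, Dsg1b and Dsg1c share sequence: 48.3% of the 50-base windows of the Dsg1b transcript and 35.0% of those of Dsg1a also occur in another Dsg1 transcript, against 0% for Dsg2. Near the 3′ ends, which the protocol reads, the annotated transcripts differ more: the last 500 bases of Dsg1a and Dsg1b were 52.8% identical when aligned, with no identical run over 9 bases, and those of Dsg1b and Dsg2 were 53.0% identical. Of the nonzero counts, 20.8% of those of Dsg1b and 13.6% of those of Dsg1a were whole, against 59.3% (Dsp) to 96.3% (Pkp1) for the other 8 members and 56.3% in the whole table, and the split between the Dsg1 genes is uncertain.

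Because 3′ ends were counted, levels of different genes are given as CPM without division by transcript length. Over the 27 libraries the mean was highest for Dsp (643 CPM), followed by Pkp1 (393 CPM), Dsc2 (292 CPM), Pkp3 (168 CPM), Dsg3 (99.4 CPM), Dsc3 (92.9 CPM), Dsg2 (54.4 CPM), Dsg1b (29.1 CPM), Dsg1a (6.94 CPM) and Dsc1 (2.96 CPM). These means pool groups that differ, and the order was another at day 5, where Dsg1b (141 CPM) and Dsc3 (186 CPM) were above Dsg3 (138 CPM) and Dsg1a (33.5 CPM) above Dsg2 (26.7 CPM). The 7 members outside the upper layers had counts in all 27 libraries. Dsg1a was at 0 in 5 libraries, Dsg1b in 3 and Dsc1 in 4, all of them at day 11. All 10 members had the 10 counts that a gene needed to be tested, in each of the 10 comparisons.

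**Figure D1:**
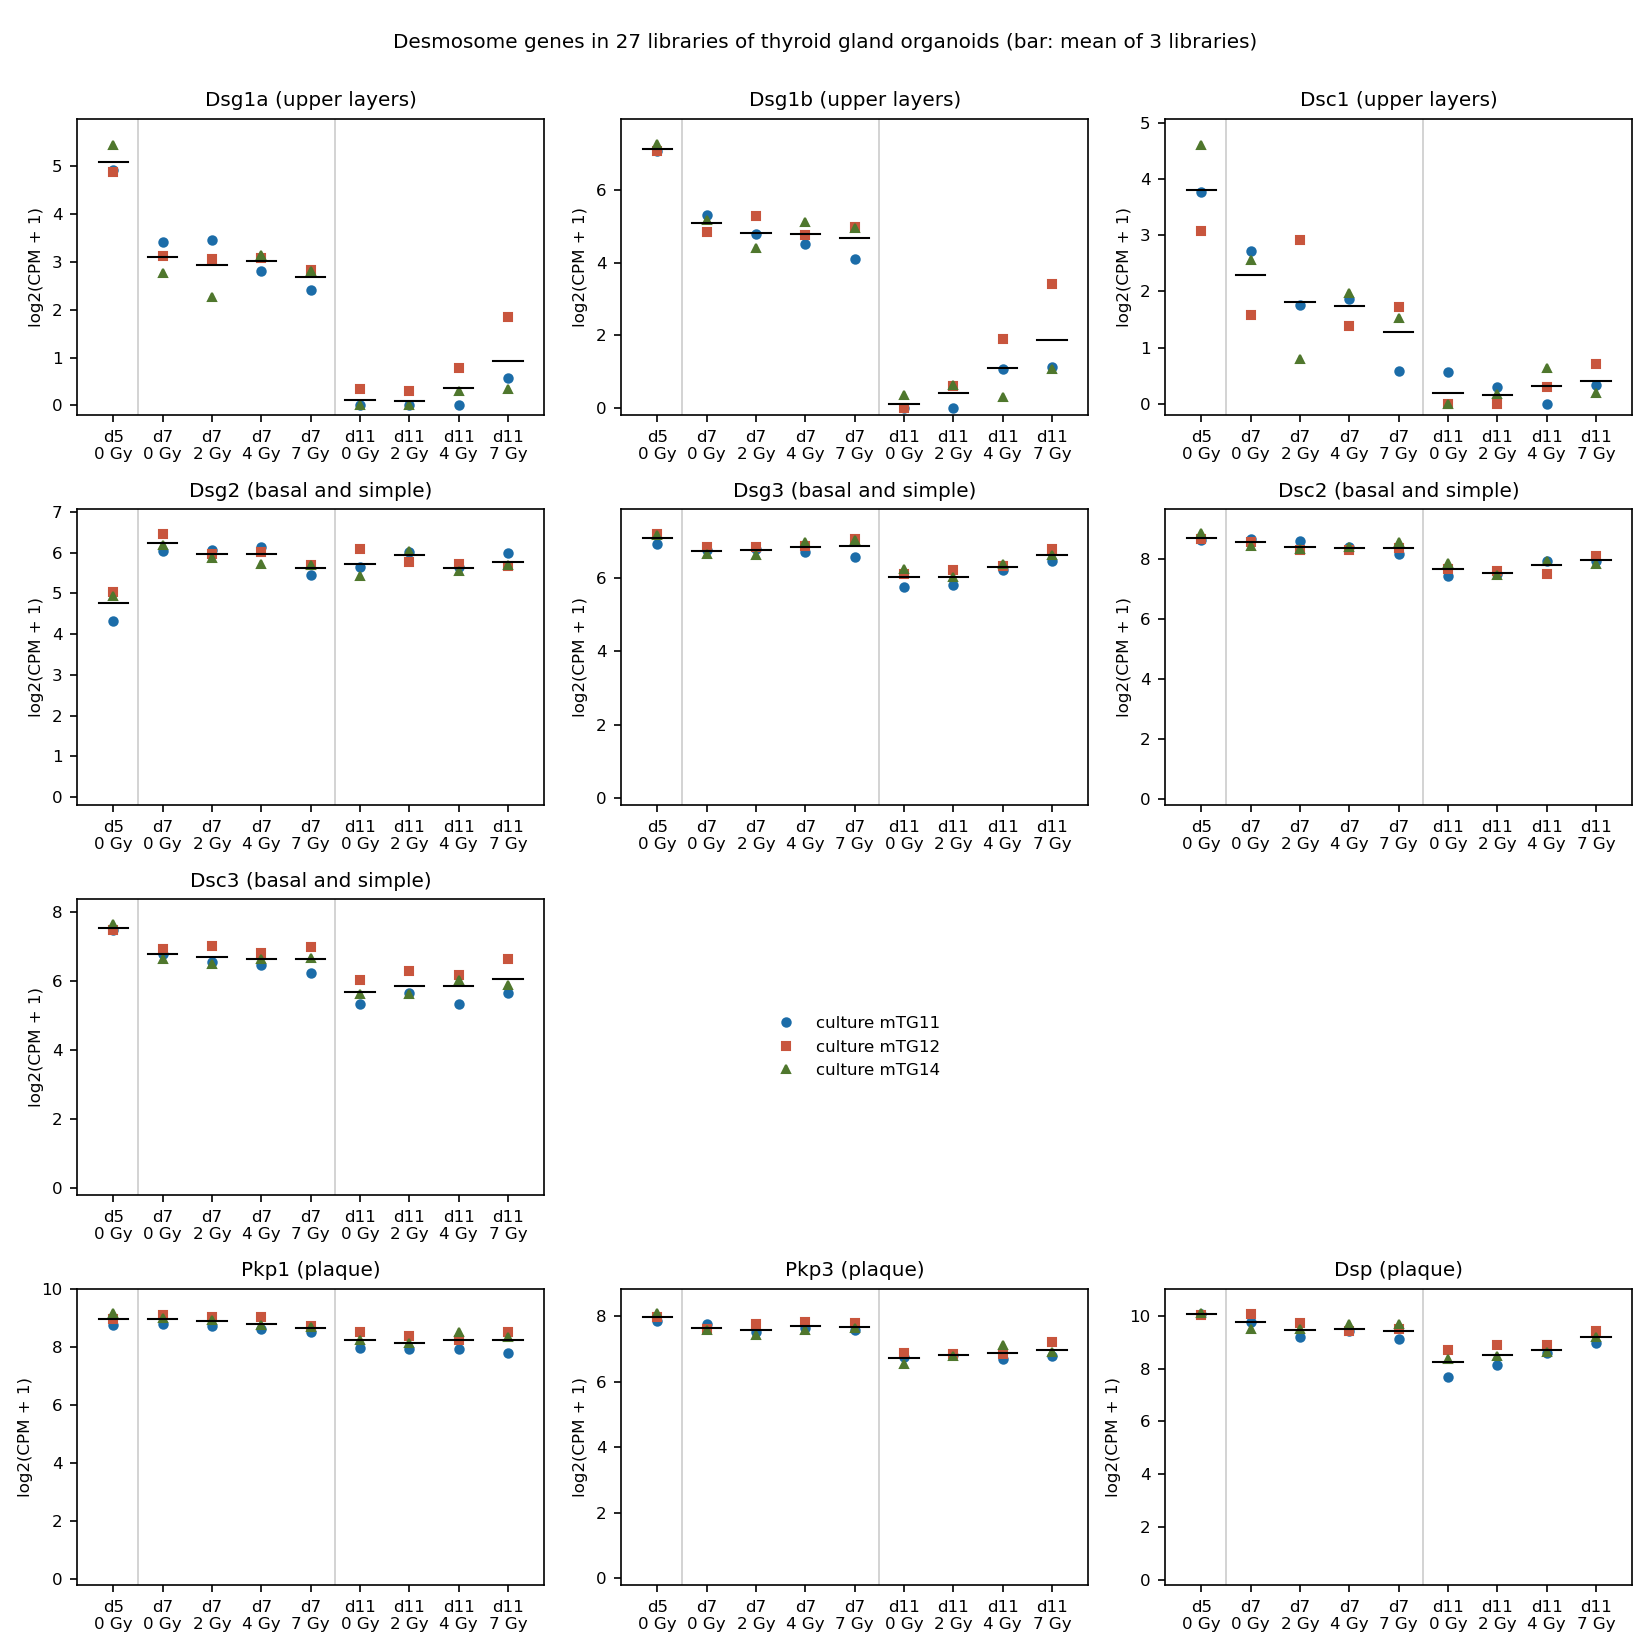
Each panel plots log2(CPM + 1) of a desmosome gene in the 27 libraries by day (d5, d7, d11) and dose, with symbols for the 3 cultures and a bar for the mean of 3 libraries. Dsg1a, Dsg1b and Dsc1 step down from day 5 to day 7, and at day 11 most of their libraries stay at or under 3 counts. The highest of these at day 11 is Dsg1b in mTG12 after 7 Gy, at 9.63 CPM. The other 7 genes stay well above 0 in every group.

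The upper-layer cadherin genes fell at each step in time without irradiation. Dsg1b, the most abundant of the 3, was at 134, 134 and 155 CPM in the day 5 libraries, at 38.7, 27.7 and 35.2 CPM at day 7 and at 0, 0 and 0.275 CPM at day 11 (cultures mTG11, mTG12 and mTG14 in each case). No library of a later day reached the lowest library of an earlier day. Dsg1a was at 29.2, 28.3 and 42.8 CPM at day 5, at 9.64, 7.77 and 5.83 CPM at day 7 and at 0, 0.268 and 0 CPM at day 11, again without overlap. Dsc1, the desmocollin of the upper layers, was at 12.6, 7.41 and 23.2 CPM at day 5, at 5.60, 1.99 and 4.89 CPM at day 7 and at 0.476, 0 and 0 CPM at day 11. Its days did not overlap either.

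Between day 5 and day 7, 5 of the 10 members passed edgeR's quasi-likelihood test, 4 of them lower and 1 higher, where 21.6% of the 18442 genes tested did (Benjamini-Hochberg adjusted p under 0.05 over all genes tested, here and throughout). The log2 fold change was -1.97 ± 0.23 (SE, n = 3 libraries per day, adjusted p = 0.000136 from edgeR) for Dsg1a, -1.91 ± 0.13 (adjusted p = 4.81e-06) for Dsg1b and -1.64 ± 0.44 (adjusted p = 0.0197) for Dsc1. The call of Dsc1 depended on single libraries: its log2 fold change was -1.10 (adjusted p = 0.130) without the day 5 library of mTG14 and -1.33 (adjusted p = 0.0651) without the day 7 library of mTG12. With the counts of Dsg1a, Dsg1b and Dsg1c summed, which does not depend on the split between them, the change was -1.91 ± 0.13 (adjusted p = 3.78e-06, edgeR). The median log2 fold change was -0.19 over the 10 members and 0.04 over all genes tested. Without TMM factors the median of all genes moved by -0.14 in the comparisons with day 5, and the members moved with it: Pkp1, not called, was at 0.15 with the factors and at 0.00 without them.

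From day 7 to day 11, 9 of the 10 members passed the edgeR test, all lower, where 21.2% of 18442 genes did. The upper-layer genes had 1 or 2 counts in all at day 11, so their fitted fold changes depend on the prior count of the fit, and ratios of pooled CPM with 95% exact counting intervals are given in their place. Dsg1b had 389 counts at day 7 and 1 at day 11, a ratio of 391 in pooled CPM (interval 69.8 to 15497, adjusted p = 1.57e-07 from edgeR). Dsg1a had 89 counts and 1 count, a ratio of 89.5 (interval 15.7 to 3576, adjusted p = 2.72e-05). Dsc1 had 48 counts and 2 counts, a ratio of 24.1 (interval 6.33 to 205, adjusted p = 0.00495). Each of these calls held without any single library of the 2 days. At day 11 every non-irradiated library held fewer than 3 counts of each of the 3 genes, so whether any transcript was made was not detectable at this depth.

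The comparison of the ends of the time course shares its libraries with the other 2 and adds no independent evidence. Between day 5 and day 11 all 10 members were called, 9 lower and 1 higher, where 41.3% of 18442 genes were called. Dsg1b had 1286 counts at day 5, a ratio of 1646 over day 11 (interval 295 to 65048, adjusted p = 2.44e-09, edgeR), Dsg1a had 310 (ratio 397, interval 70.7 to 15718) and Dsc1 had 138 (ratio 88.3, interval 23.98 to 736).

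The basal and simple-epithelium cadherin genes did not move together. Dsg2, the desmoglein found in simple epithelia, was at 19.0, 31.6 and 29.5 CPM at day 5, at 64.7, 86.9 and 72.3 CPM at day 7 and at 49.3, 67.4 and 42.1 CPM at day 11. Its day 5 libraries were below those of both later days, while days 7 and 11 overlapped. It rose from day 5 to day 7 by a log2 fold change of 1.64 ± 0.20 (SE, adjusted p = 0.000180, edgeR), the opposite direction to the upper-layer desmogleins, and was 1.13 ± 0.20 above day 5 at day 11 (adjusted p = 0.000773). The change from day 7 to day 11, -0.51 ± 0.18, did not pass the test (adjusted p = 0.0657, edgeR), but it was called under 4 of the alternatives run. Among these were the culture as a replicate block (adjusted p = 0.00561) and the fits without the day 7 library of mTG11 (-0.62, adjusted p = 0.0422) or the day 11 library of mTG12 (-0.70, adjusted p = 0.0206).

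Dsc3, a desmocollin of the basal layers, was at 178, 177 and 202 CPM at day 5, at 109, 120.3 and 99.2 CPM at day 7 and at 39.5, 65.1 and 48.7 CPM at day 11. The 3 days did not overlap. It fell by a log2 fold change of -0.61 ± 0.14 from day 5 to day 7 (adjusted p = 0.00879, edgeR) and of -1.11 ± 0.15 from day 7 to day 11 (adjusted p = 0.000248). Dsc2, the most abundant of the 7 cadherin genes, averaged 415 ± 36.2, 372 ± 28.7 and 200.4 ± 28.6 CPM (SD, n = 3 each) on days 5, 7 and 11. Dsg3, the desmoglein of the lower layers of stratified epithelia, was at 138 ± 14.1, 107 ± 7.20 and 65.7 ± 11.6 CPM (SD, n = 3 each). Neither passed the test between days 5 and 7, with log2 fold changes of -0.01 ± 0.11 (95% interval -0.26 to 0.23) for Dsc2 and -0.21 ± 0.13 (interval -0.49 to 0.07) for Dsg3. From day 7 to day 11 both fell, Dsc2 by -0.89 ± 0.12 (adjusted p = 0.000186, edgeR) and Dsg3 by -0.71 ± 0.13 (adjusted p = 0.00226).

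None of the plaque genes passed the test between days 5 and 7, and all 3 fell afterwards. Dsp, which encodes desmoplakin, was at 1062, 1035 and 1101 CPM at day 5, at 869, 1062 and 725 CPM at day 7 and at 205, 411 and 326 CPM at day 11. Days 5 and 7 overlapped, and every day 11 library was below all others. The log2 fold change of Dsp was -0.12 ± 0.20 from day 5 to day 7 (interval -0.55 to 0.31) and -1.50 ± 0.20 from day 7 to day 11 (adjusted p = 0.000256, edgeR). The plakophilin genes, whose products strengthen the plaque, were at 503 ± 71.4, 502 ± 56.1 and 308 ± 59.9 CPM (SD, n = 3 each, Pkp1) and at 249.5 ± 20.6, 200.3 ± 14.4 and 106 ± 12.9 CPM (Pkp3) on the 3 days. The day 7 libraries of Pkp3, at 217, 193 and 191 CPM, were all below those of day 5, at 229, 249 and 271 CPM, but the change of -0.17 ± 0.09 on the log2 scale was not called by edgeR (adjusted p = 0.213) except without TMM factors (-0.32, adjusted p = 0.0479). From day 7 to day 11 both plakophilin genes fell by -0.71 ± 0.15 (Pkp1, adjusted p = 0.00464, edgeR) and -0.92 ± 0.09 (Pkp3, adjusted p = 3.00e-05).

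The make-up of the cadherin counts shifted accordingly. Dsg1a, Dsg1b and Dsc1 together took 19.8%, 18.4% and 21.0% of the counts of the 7 cadherins in the day 5 libraries, 7.36%, 5.08% and 6.97% at day 7 and 0.152%, 0.0668% and 0.0694% at day 11, where they rest on 1 or 2 counts a library. Every library was below every library of an earlier day. Summed over the genes, the upper-layer group went from 189 ± 28.3 CPM (SD, n = 3) to 45.7 ± 8.26 and 0.340 ± 0.118 CPM, while the basal and simple-epithelium group went from 765 ± 62.2 to 663 ± 45.7 and 370.1 ± 48.9 CPM. As log2 of the upper-layer sum over the other, each with 1 CPM added, the means were -2.02 ± 0.12 (SD, n = 3) at day 5, -3.84 ± 0.30 at day 7 and -8.11 ± 0.32 at day 11. The last value depends on the added 1 CPM and was -9.74 with 0.1 CPM, so the share of counts is the plainer measure there, although it too rests on fewer than 3 counts a library. These are descriptions of a score over chosen genes and carry no test.

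**Figure D2:**
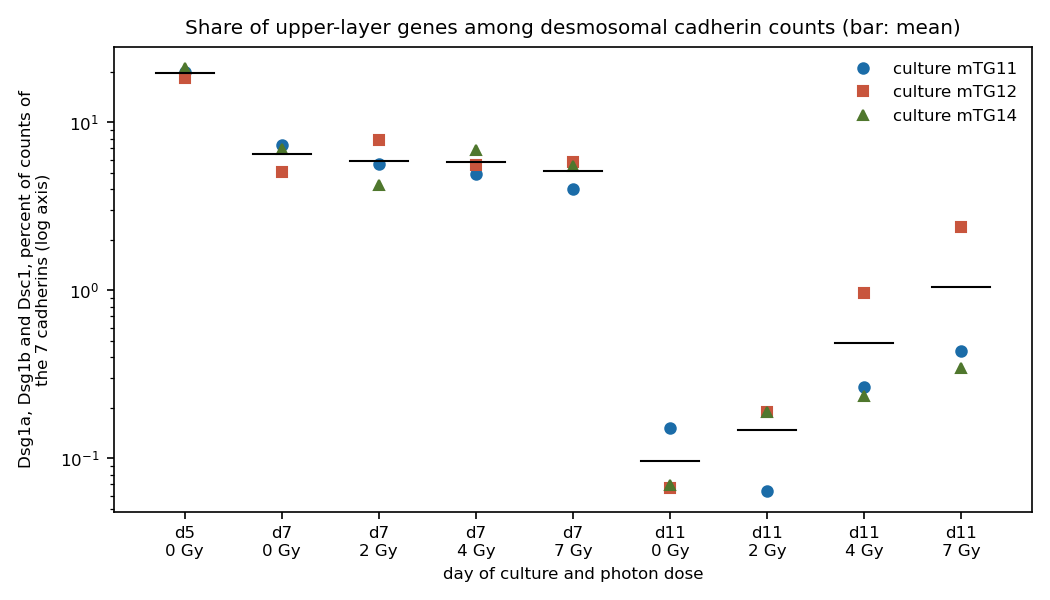
The plot gives, on a log axis, the percentage of the counts of the 7 desmosomal cadherin genes that came from Dsg1a, Dsg1b and Dsc1 in each of the 27 libraries, by day and dose, with a bar for the mean of 3 libraries. The share lies between 18.4% and 21.0% at day 5, between 4.03% and 7.79% at day 7 over all doses, and at most 2.37% at day 11, where the library of culture mTG12 at 7 Gy is the highest.

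The dose comparisons at day 7 share their 3 non-irradiated libraries. At 2 Gy, 0 of 10 members passed the edgeR test, where 0.124% of 19346 genes did, and 1 member had an unadjusted p under 0.05, as had 1629 of all genes. At 4 Gy it was 0 of 10, where 1.63% of 19346 genes passed, with 2 members and 2901 genes under an unadjusted 0.05. DESeq2 also called 0 members at both doses, among 61 and 415 genes. At 7 Gy, 1 of 10 members was called, where 6.95% of 19346 genes were, with 3 members and 4112 genes under an unadjusted 0.05. With the culture as a replicate block the numbers of genes called were 138, 1009 and 2193 at the 3 doses, in place of 24, 315 and 1345. With no filter on low counts more genes were called at each dose, as given under the processing, and the members among them were 1, 1 and 4.

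The member called at 7 Gy was Dsg2. It was at 42.6, 50.9 and 50.8 CPM after 7 Gy, against 64.7, 86.9 and 72.3 CPM in the non-irradiated libraries of the same cultures and day. The groups did not overlap, and the 7 Gy libraries lay between the non-irradiated levels of day 5 and day 7. The log2 fold change was -0.64 ± 0.13 (SE, n = 3 per group, adjusted p = 0.00893 from edgeR), and it was lower in 3 of 3 cultures. Without the 7 Gy library of mTG11 it was -0.56 (adjusted p = 0.0593), no longer called. The values at the lower doses were -0.31 ± 0.13 (2 Gy, adjusted p = 0.546) and -0.33 ± 0.13 (4 Gy, adjusted p = 0.238), and the differences between doses were not tested. With the replicate block Pkp1 was called as well (-0.33, adjusted p = 0.00731, against 0.113 without it).

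None of the upper-layer genes passed the edgeR test with its filter on low counts at day 7 at any dose. After 7 Gy Dsg1b was at 16.1, 31.0 and 30.2 CPM, Dsg1a at 4.30, 6.08 and 6.03 CPM and Dsc1 at 0.501, 2.31 and 1.86 CPM. The lowest value of Dsc1, in mTG11, stands for 2 counts, under the limit of 3, and is no measured level. The ranges of all 3 genes overlapped those without irradiation. The log2 fold changes were -0.40 ± 0.26 (interval -0.96 to 0.15) for Dsg1b, -0.50 ± 0.30 (interval -1.13 to 0.14) for Dsg1a and -1.45 ± 0.63 (interval -2.81 to -0.09, adjusted p = 0.203 from edgeR) for Dsc1. The intervals of Dsg1b and Dsg1a included 0, and that of Dsc1 did not, although its p missed the threshold after adjustment. The share of the upper-layer genes among the cadherin counts averaged 6.47 ± 1.22% (SD, n = 3) without irradiation, 5.90 ± 1.79% at 2 Gy, 5.78 ± 0.976% at 4 Gy and 5.12 ± 0.958% at 7 Gy, which overlapped. The other 6 members had log2 fold changes at 7 Gy from -0.34 (Dsp) to 0.14 (Dsg3).

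**Figure D3:**
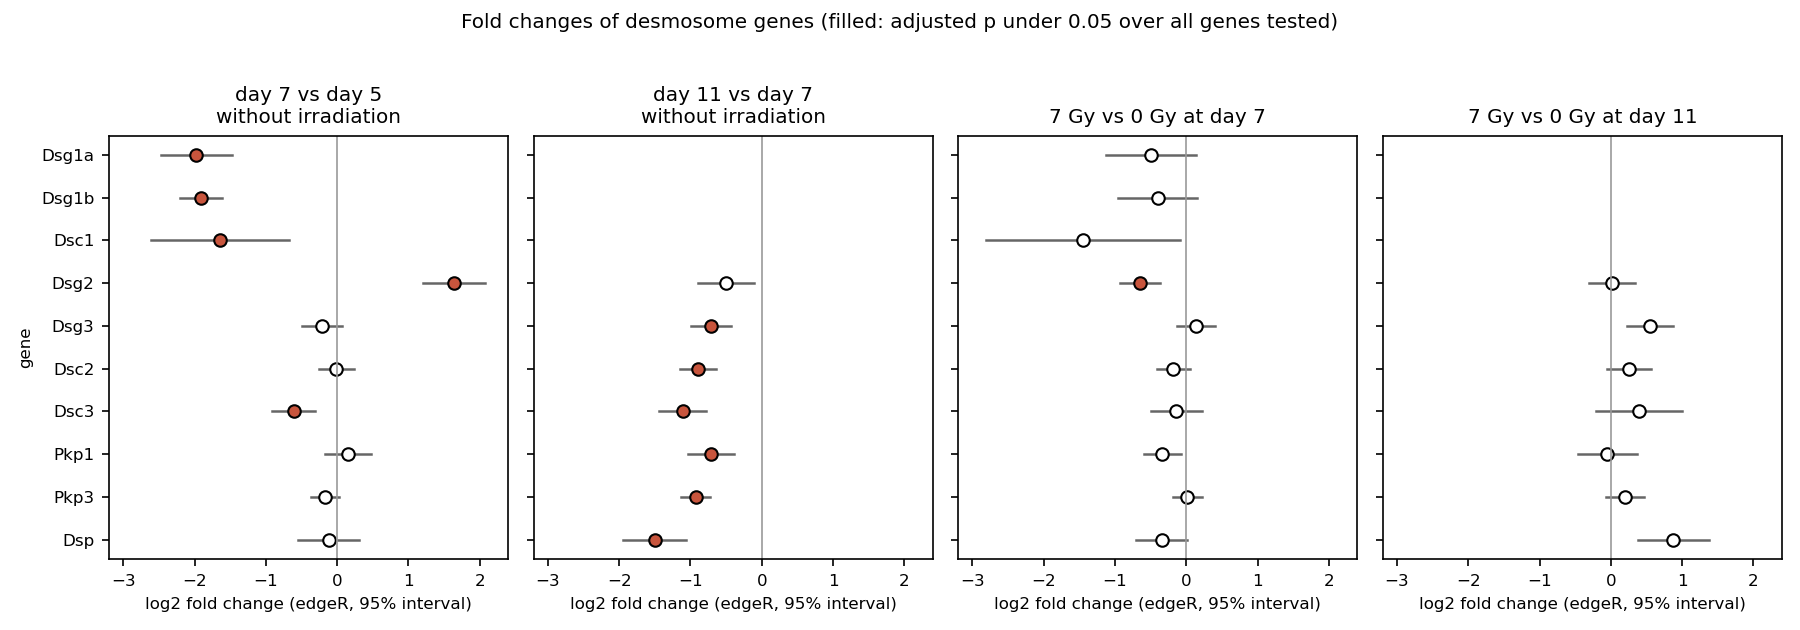
The panels plot the log2 fold change of each desmosome gene with its 95% interval from edgeR, for 2 steps in time without irradiation and for 7 Gy against 0 Gy at days 7 and 11; filled points passed an adjusted p of 0.05 over all genes tested. The upper-layer genes are left out of the panels that use day 11, where they had 1 or 2 counts without irradiation; Dsg2 is the only gene drawn that rose from day 5 to day 7 and passed the test.

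At day 11 the dose comparisons again share their 3 non-irradiated libraries. At 2 Gy, 0 of 10 members were called, where 0.00% of 19901 genes were, and 0 members had an unadjusted p under 0.05, against 1159 of all genes. At 4 Gy it was 0 of 10, where 0.00502% (1 gene) was called, with 1 member, Dsg1b, and 1501 genes under an unadjusted 0.05. At 7 Gy it was 0 of 10 by edgeR, where 1.52% of 19901 genes were called, with 4 members and 2961 genes under an unadjusted 0.05. DESeq2 called 0, 0 and 3 members at these doses, among 1, 37 and 417 genes. With the replicate block 72, 238 and 1297 genes were called in place of 0, 1 and 302, and 3 members were called at 7 Gy.

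Those 3 members were Dsg1b, Dsg3 and Dsp, all higher after 7 Gy. Dsp was at 498, 687 and 589.6 CPM after 7 Gy, against 205, 411 and 326 CPM without irradiation in the same cultures. The groups did not overlap, and Dsp was higher in 3 of 3 cultures. Its log2 fold change was 0.87 ± 0.23 (SE, adjusted p = 0.0849 from edgeR, not called), 0.91 with the replicate block (adjusted p = 0.000364) and 0.88 by DESeq2 (adjusted p = 0.00599). Dsg3 was at 87.0, 111 and 98.04 CPM after 7 Gy, against 53.1, 68.1 and 75.9 CPM. These groups did not overlap either, and the log2 fold change was 0.55 ± 0.15 (adjusted p = 0.0958, edgeR), 0.55 with the block (adjusted p = 0.00575) and 0.55 by DESeq2 (adjusted p = 0.0381). The values at 2 and 4 Gy were 0.21 ± 0.23 and 0.40 ± 0.23 for Dsp and -0.05 ± 0.15 and 0.23 ± 0.15 for Dsg3.

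Dsg1b was at 1.18, 9.63 and 1.09 CPM after 7 Gy at day 11, that is 6.75, 53.5 and 4 estimated counts, against 0, 0 and 0.275 CPM without irradiation. All 3 irradiated libraries were above all non-irradiated ones, but the library of mTG12 stood apart and held 83.3% of the counts of its group. The pooled CPM was 49.5 times that without irradiation (95% exact counting interval 8.58 to 1987, which covers counting error and not the spread between cultures). The adjusted p was 0.0814 from edgeR, 0.00309 with the replicate block and 0.0211 by DESeq2. Dsg1a was not called (adjusted p = 0.228, edgeR): it had 2.75, 14.5 and 1 counts after 7 Gy, against 1 count in all without irradiation. Its ratio of 13.9 (interval 2.20 to 581) rests mostly on mTG12, which held 79.5% of the counts, and the other irradiated libraries had fewer than 3 counts each. Dsc1 had 6 counts after 7 Gy and 2 without irradiation (ratio 2.32, interval 0.415 to 23.5). At 4 Gy Dsg1b had 4, 12.2 and 0.83 counts, 71.6% of them in mTG12 (ratio 16.7, interval 2.62 to 698, adjusted p = 0.648, edgeR), and it was called there only with no filter on low counts (adjusted p = 0.00911). The ratios of Dsg1b at 2 Gy (3.92, interval 0.388 to 193) and of Dsg1a at 4 Gy (3.93, interval 0.389 to 194), each of 4 counts to 1, had intervals that include 1. No fold is given for Dsg1a and Dsc1 at 2 Gy or for Dsc1 at 4 Gy, where both groups held 3 counts or fewer.

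The share of the upper-layer genes among the cadherin counts at day 11 was 0.266%, 0.956% and 0.234% at 4 Gy and 0.433%, 2.37% and 0.345% at 7 Gy (mTG11, mTG12 and mTG14). Without irradiation and at 2 Gy every library held fewer than 3 counts of these genes. The shares given above without irradiation are therefore not levels, none is given at 2 Gy, and no order between doses is read from the shares. The highest share at day 11 was still below the lowest at day 7, which was 4.03%. The log2 ratio averaged -7.23 ± 0.77 (SD, n = 3) and -6.65 ± 1.21 at 4 and 7 Gy, and -7.34 at 7 Gy without the library of mTG12.

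Whether the response to 7 Gy differed between the days was tested in a fit of both days and all doses. Of the 10 members 2 were called, Dsg1b and Dsp, where 3.02% of 21928 genes were called (663, and 1156 with the replicate block). For Dsp the difference of the log2 fold changes, day 11 minus day 7, was 1.25 ± 0.30 (SE, adjusted p = 0.0215, edgeR). Dsp was at 700.4 ± 137 CPM after 7 Gy and 886 ± 169 CPM without at day 7, and at 592 ± 94.3 and 314 ± 103 CPM at day 11 (SD, n = 3 each). The call was lost in 5 of 12 fits that each left out a library: day 7 without irradiation mTG12 (1.10, adjusted p = 0.0653), day 7 at 7 Gy mTG11 (1.12, 0.0730) and mTG12 (1.23, 0.0576), day 11 without irradiation mTG11 (0.99, 0.0891) and day 11 at 7 Gy mTG12 (1.15, 0.0633). For Dsg1b the adjusted p was 0.0201 (edgeR), and it was 0.0955 without the non-irradiated day 11 library of mTG11, 0.0683 without that of mTG12 and 0.169 without the 7 Gy library of mTG12 at day 11. It was also lost when only the groups compared were fitted (adjusted p = 0.0536). Both calls were lost with every library of mTG12 left out, which was chosen after seeing the data (adjusted p = 0.224 for Dsg1b and 0.0680 for Dsp). With the replicate block 4 members were called, these 2 (adjusted p = 0.00792 for Dsg1b and 0.000217 for Dsp) and Dsg1a (0.0467) and Dsg2 (0.0363). Without the block, Dsg1a (adjusted p = 0.0717) was called when the 7 Gy day 11 library of mTG11 (0.0491) or mTG14 (0.0408) was left out, and Dsg2 (adjusted p = 0.0737) when the non-irradiated library of mTG11 at day 7 (0.0447) or of mTG12 at day 11 (0.0127) was.

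Across the 9 group means of log2(CPM + 1), the members other than Dsg2 followed each other, as a description of points that share cultures and days. Pearson's r was between 0.944 and 0.992 among the 3 upper-layer genes, between 0.873 and 0.938 among the 3 plaque genes and between 0.869 and 0.986 across those groups (n = 9 group means). Leaving out Dsg2, pairs with Dsg3, Dsc2 or Dsc3 ran from 0.799 (Dsg3 with Dsc1) to 0.994 (Dsc3 with Dsg1a). Dsg2 was the exception, with r from -0.490 (Dsc1) to -0.0640 (Pkp1). The order of the group means put day 5 first for each member but Dsg2, for which day 7 without irradiation was highest (74.6 ± 11.3 CPM, SD, n = 3) and day 5 lowest (26.7 ± 6.74 CPM). For Dsg1b the order was day 5, then day 7 at 0, 2, 4 and 7 Gy, then day 11 at 7, 4, 2 and 0 Gy. Within that order 6 of 8 neighbors overlapped, and only day 5 against day 7 and day 7 against day 11 were apart. At day 11 every library at 0 and 2 Gy held fewer than 3 counts of Dsg1b, so its order of doses there is not one of measured levels.

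The genes outside the members whose group means were most like those of Dsg1b, out of 9529 genes averaging 10 CPM or more, were Gm5160 (r = 0.997), Gm5883 (0.997), Gm4824 (0.997), Ppia (0.996) and Cdk2ap1 (0.996). For Dsc2, the most abundant cadherin, they were Fdft1 (r = 0.991), Klk8 (0.991), Lypd3 (0.991), Fhl3 (0.991) and Hmgcs1 (0.990). Fdft1 and Hmgcs1 encode enzymes of sterol synthesis. Each r is over 9 group means and describes likeness only.

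Of 8 other desmosome genes, Dsg4 had 1 count in all libraries and 7 were tested over days. From day 5 to day 7, 2 were higher and 1 lower (median log2 fold change -0.08, against 0.04 for all genes), and from day 7 to day 11, 0 were higher and 3 lower (median -0.14, against 0.00, whether Dsg1c has its fitted value or the bound given next). Dsg1c, a close relative of Dsg1a and Dsg1b, fell like them: it had 51 counts at day 5, 22 at day 7 and 0 at day 11, so that day 7 was at least 7.38-fold higher than day 11 against a floor of 3 counts over the group (adjusted p = 0.000719, edgeR). Jup, which encodes plakoglobin, fell from day 7 to day 11 (log2 fold change -0.92 ± 0.10, adjusted p = 6.31e-05), as did Perp, a membrane protein of desmosomes (-0.66 ± 0.13, adjusted p = 0.00393). Pkp2, the plakophilin of simple epithelia and heart, rose from day 5 to day 7 by 1.07 ± 0.22 (adjusted p = 0.00454), as did Evpl, which encodes envoplakin (0.68 ± 0.17, adjusted p = 0.0151). With dose, 1 of 7 was called at 7 Gy at day 7, Pkp4 (-0.42 ± 0.12, adjusted p = 0.0405). At the other doses 0 of 7 were called at day 7 and 0 of the 6 tested at day 11.

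The adherens junction is the actin-linked junction of the same cell borders, and no test compared its genes with the members. Of 7 genes, 5 were higher and 0 lower at day 7 than at day 5 (median log2 fold change 0.33, against 0.04 for all genes, of which 21.6% were called), among them Cdh1, which encodes E-cadherin (0.36 ± 0.08, adjusted p = 0.00718, edgeR), and Ctnna1 (0.58 ± 0.08, adjusted p = 0.000370). From day 7 to day 11, 1 was higher (Afdn, 0.57 ± 0.09) and 1 lower (Vcl, -0.40 ± 0.09), with a median of -0.05 against 0.00. None of the 7 was called with dose at either day by edgeR, with at most 1 under an unadjusted p of 0.05 in each comparison. Of 8 transcription factor genes of stratification, 1 was higher and 1 lower at day 7 than at day 5, and 2 were higher and 2 lower at day 11 than at day 7 (medians 0.13 and -0.06, against 0.04 and 0.00 for all genes). Trp63, which encodes the p63 factor of basal cells, was among those lower at day 11 (-0.80 ± 0.15, adjusted p = 0.00211). Trp63 was also lower at day 7 after 4 Gy (-0.47 ± 0.10, adjusted p = 0.0365) and 7 Gy (-0.64 ± 0.10, adjusted p = 0.00217), and its response to 7 Gy differed between the days (0.99 ± 0.18, adjusted p = 0.00180).

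Markers of cell types moved along with these changes, and their part in them was not tested. Among 8 markers of suprabasal stratified cells, 2 were higher (Krt4, 1.46 ± 0.26, and Ivl, 1.49 ± 0.18) and 3 lower at day 7 than at day 5 (median log2 fold change -0.68, against 0.04 for all genes), and 0 were higher and 5 lower at day 11 than at day 7 (median -1.19, against 0.00). Krtdap, a gene of differentiating keratinocytes, was at 1494, 344 and 22.3 CPM at days 5, 7 and 11, and Lor, which encodes the cornified envelope protein loricrin, at 117, 84.9 and 1.03 CPM. The summed level of the list, led by Krt13 in every group, was 6816 ± 935, 7202 ± 1822 and 3672 ± 657 CPM (SD, n = 3 each) on these days. Of 6 basal markers 0 were called by edgeR between days 5 and 7, with 3 under an unadjusted p of 0.05, as were 6231 of 18442 genes, and all 6 were lower at day 11 than at day 7 (sums 15370.3 ± 1606, 10889 ± 1345 and 5075 ± 1226 CPM, led by Krt14 at day 5 and by Krt5 later). All 5 markers of simple epithelium, the keratin genes Krt7, Krt8, Krt18 and Krt19 and Epcam, rose from day 5 to day 7 (sums 739.5 ± 120.5, 2692 ± 677 and 2979 ± 645 CPM on the 3 days). From day 7 to day 11 Krt18 (0.92 ± 0.17) and Krt7 (1.13 ± 0.25) were higher and Krt19 was lower (-1.06 ± 0.27).

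Other cell types were scarce by their markers. The 7 fibroblast markers summed to 84.1 ± 45.8, 67.7 ± 44.2 and 23.5 ± 16.6 CPM (SD, n = 3 each) on days 5, 7 and 11, most of it collagen and Dcn, and 2 of 7 were lower at day 11 than at day 7. The 5 muscle markers summed to 82.2 ± 44.9 CPM at day 5 and 29.2 ± 15.9 CPM at day 7, led by Des, and to 10.7, 18.5 and 94.0 CPM in mTG11, mTG12 and mTG14 at day 11, led by Acta2. Of the 3 tested, Des was lower at day 7 than at day 5 (-1.47 ± 0.47, adjusted p = 0.0436, edgeR) and at day 11 than at day 7 (-2.98 ± 0.70, adjusted p = 0.00981), and Acta2 was higher at that step (2.83 ± 0.92, adjusted p = 0.0463), with 88.0 CPM in mTG14. The 6 immune and endothelial markers summed to a mean under 1 CPM on each of these days, with up to 1.52 CPM in a library (mTG12 at day 5) and Cd3e at 0 in every library. Of the thyroid markers, Tshr and Slc5a5 were at 0 in the non-irradiated libraries of day 11.

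Some suprabasal markers were called with dose. At day 7 after 7 Gy Krtdap (-1.43 ± 0.22, adjusted p = 0.00158, edgeR) and Lor (-2.51 ± 0.39, adjusted p = 0.00175) were lower and Ivl, which encodes involucrin, was higher (0.82 ± 0.15, adjusted p = 0.00536), 3 of 8 in all. Krtdap was also lower after 4 Gy (-0.996 ± 0.22, adjusted p = 0.0332), the 1 call of 8 there. At day 11 after 7 Gy 1 of 8 was called, Krtdap (1.78 ± 0.29, adjusted p = 0.0123), and the lists of basal, simple-epithelium and fibroblast markers had 0 calls there by edgeR. Of the muscle markers, Des was higher (2.20 ± 0.48, adjusted p = 0.0351). The response of Krtdap (3.24 ± 0.39, adjusted p = 2.90e-05) and Lor (4.99 ± 0.96, adjusted p = 0.00313) to 7 Gy differed between the days in the same direction as that of Dsg1b. These were 2 of 8 called, and the list ranged from -0.47 (Ivl) to 4.99 with a median of 0.46, against 0.02 for all genes. The libraries of Lor were uneven at day 11 after 7 Gy, from 1.75 to 12.2 CPM (mean 5.75), and those without irradiation held 12 counts in all. Fibroblast markers at day 11 summed to 76.5 ± 46.4, 63.8 ± 50.4 and 45.7 ± 29.7 CPM at 2, 4 and 7 Gy, against 23.5 ± 16.6 CPM without irradiation, with 0 of 7 called.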

How the data were processed

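RNA of 27 organoid libraries was made into libraries by the authors with Smart3SEQ, and the submitters' processing notes name STAR, edgeR and the build GRCm39, without versions. The counting tool, annotation, use of strand and handling of molecular identifiers are not given in the sources used here. What the authors deposited were estimated counts without normalization, listed by gene symbol, of which 56.3% of those above 0 were whole (within 1e-06). All columns of the table were used. Each column was placed in its group by the day and dose in its name; the series text speaks of organoids from 4 mice while the labels number 3 per group.

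Division of the deposited counts by the total of each library gave CPM. For tests the counts were rounded, although the design had assumed whole counts, and fitted with edgeR 4.0.16 in R 4.3.3: TMM factors, a minimum of 10 counts per gene in total across the fitted libraries, quasi-likelihood tests without covariates, and Benjamini-Hochberg adjustment over all genes tested at 0.05. Days were compared in a fit of 9 libraries, doses in a fit of 12 for each day, and the difference of the 7 Gy response in a fit of 24. Scripts ran in Python 3.11.15 with scipy 1.17.1 and Biopython 1.88, and the tests were checked on simulated data. Standard errors were taken as the fold change over the square root of F. Counting intervals are 95% exact (Clopper-Pearson) on rounded counts pooled over a group. Coordinates and transcripts are from GENCODE for GRCm39.

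Members and lists were chosen with earlier results of these data known. The genes named are the members, the genes of the lists of other desmosome, adherens junction and stratification genes, the cell type markers, and the 5 genes most like the most expressed upper-layer and basal member. Alternatives were no TMM factors, DESeq2 1.42.0, edgeR's filterByExpr, no filter, the culture as a replicate block, only the groups compared, summed Dsg1 genes, other forms of the ratio and leaving out each library. Leaving out every library of mTG12 was added after seeing the data.

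The culture identifiers pair the libraries, which the main fits left out and the replicate block took up. Deviations from group means over 9537 genes correlated in all 84 pairs of the same culture at days 7 and 11 (mean 0.362, lowest 0.142, against a mean of -0.180 for other cultures) and in 9 of 9 pairs over days (mean 0.261). Replicate counts differed by at least 3.39 chi-square per degree of freedom over 27 pairs, so no library was counted as a duplicate.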

Additional observations from a re-analysis of the deposited data

Results flagged for a closer look

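Of the members, 2 responded to 7 Gy differently at day 11 than at day 7 by the test of that difference, where 3.02% of 21928 genes did. For Dsp the difference, day 11 minus day 7, was 1.25 on the log2 scale (adjusted p = 0.0215, edgeR). The call was lost in 5 of 12 fits that each left out a library, with adjusted p up to 0.0891, and without any library of mTG12 (0.0680). It was kept with the culture as a replicate block. At day 11 all 3 irradiated libraries were above all non-irradiated ones, while at day 7 the ranges overlapped.

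For Dsg1b the fitted difference was 5.58 on the log2 scale (adjusted p = 0.0201, edgeR). That value depends on the prior count of the fit, since the 3 non-irradiated day 11 libraries held 1 count in all, and 53.5 of the counts after 7 Gy came from the library of mTG12. Without that library the difference was 3.77 and its adjusted p 0.169. The call was also lost without the non-irradiated day 11 library of mTG11 (0.0955) or of mTG12 (0.0683) and in the fit of only the groups compared (0.0536). Of 8 suprabasal markers, Krtdap and Lor were called with a difference in the same direction and 6 were not called, among them Ivl at -0.47. Lor was uneven over the libraries of day 11 after 7 Gy, from 1.75 to 12.2 CPM. The part of these markers in the result was not tested.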

How the results depend on the processing

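Over time the member counts changed by at most 1. Between days 5 and 7 the block called 5 of 10 among 4607 genes, and leaving out a library gave 4 to 5 among 2944 to 3321. From day 7 to day 11 it was 10 among 4575 genes, and 9 to 10 among 2922 to 3338. The block changed no member's call over time but that of Dsg2 from day 7 to day 11. No member's call reversed direction under any alternative run. Of members not called, Pkp1 (day 7 against day 5), Dsg3 (2 Gy, day 7) and Pkp3 (4 Gy, day 7) changed sign without TMM factors, and Pkp3 was called between days 5 and 7 without them (-0.32, adjusted p = 0.0479, edgeR). The share of called genes that were higher went from 55.5% to 35.9% without TMM factors for day 7 against day 5, from 51.4% to 39.9% for day 11 against day 5 and from 69.5% to 79.6% for 7 Gy at day 11; for 2 Gy at day 7 it went from 95.8% to 80.3% with DESeq2.

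Counts of calls with dose moved more, and the cause was not tested. With no filter on low counts, 404, 1263 and 2211 genes were called at 2, 4 and 7 Gy at day 7, 267, 465 and 1205 at day 11, and 1234 for the difference of the 7 Gy response; members called were 1, 1 and 4 at day 7, 1 at 4 Gy and 3 at 7 Gy at day 11, and 4 for the difference. With the culture as a replicate block the genes called were 138, 1009 and 2193 at day 7, 72, 238 and 1297 at day 11 and 1156 for the difference, and members called were 2 (7 Gy, day 7), 3 (7 Gy, day 11) and 4 (difference). DESeq2 called 61 genes at 2 Gy at day 7, and 1 and 37 at 2 and 4 Gy at day 11, with 3 members among 417 genes at 7 Gy. With only the groups compared, 7 genes were called at 2 Gy at day 7 and 0 at 4 Gy at day 11, and the call of Dsg1b for the difference was lost. Without any library of mTG12, which also leaves fewer libraries, 0 genes were called at 4 Gy and 155 at 7 Gy at day 11, and 440 genes with 0 members for the difference.

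Leaving out a library at a time, which leaves fewer libraries, gave 8 to 24 genes at 2 Gy, 125 to 229 at 4 Gy and 705 to 1000 at 7 Gy at day 7, with 0 to 1 members at 7 Gy, 0 to 1 genes at 4 Gy and 60 to 165 at 7 Gy at day 11, and 443 to 606 genes with 0 to 3 members for the difference. The upper to basal ratio moved by more than its SD in 6 of 63 recomputations: to -9.74 (0 Gy) and -9.27 (2 Gy) at day 11 with 0.1 CPM added, and, as a difference of mean logs, to -1.68 at day 5 and to -6.13, -6.12 and -5.81 at 0, 2 and 4 Gy at day 11.

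The depth limits the upper-layer genes at day 11, where a library of 3 counts or fewer gives no level. It also limits Dsc1 at day 7 in mTG14 after 2 Gy and in mTG11 after 7 Gy, each with 2 counts. With 3 libraries a group, p-values without the block measure the spread between the libraries of a group, each from another culture. They treat libraries of the same culture in different groups as independent, although these deviated together. Those with the replicate block set steady differences between cultures aside. The culture identifiers could not be matched to the numbered mice.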

Other observations

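The cultures kept an order within groups for some members, a pattern chosen after its values were seen. Pkp1 was lowest in mTG11 in 9 of 9 groups, with values there from 440 CPM (day 7 without irradiation) to 223 CPM (day 11 after 7 Gy), and highest in mTG12 in 7. Dsc3 was highest in mTG12 in 8 of 9 groups, with 120 CPM at day 7 and 65.1 CPM at day 11 without irradiation. Dsg3 and Dsp were each lowest in mTG11 in 7 of 9 groups. Dsc2 showed no such order, being highest in mTG11 in 4 groups, in mTG14 in 3 and in mTG12 in 2. Libraries with the same identifier deviated together, so the 9 groups are not counted as independent here.

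Dsg1b and Dsg1a at day 11 after 4 Gy were highest in mTG12, with 12.2 estimated counts of Dsg1b there, 4 in mTG11 and 0.83 in mTG14. Dsc1 was not, with 1 count in mTG12 and 2 in mTG14.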
